A study of Sus scrofa with 15 samples.

Results

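The genes examined here encode 9 enzymes and enzyme subunits of mitochondrial carbon metabolism, 8 of the tricarboxylic acid (TCA) cycle and pyruvate carboxylase, which feeds it. They were chosen by name from the known make-up of the pathway, by a rule that uses no measured value, although the set was proposed with earlier results of these data known: PC, CS, IDH3A, OGDH, SUCLG1, SDHA, SDHB, FH and MDH2. All 9 were found among the 30477 genes in the deposited count files, and all 9 were among the 14918 that passed the filter on low counts. RNA-seq was performed on subcutaneous backfat of Iberian pigs, a fat local breed, biopsied as yearlings at the end of the growing period. The control diet (C) was a restricted compound feed. The dry olive pulp diet (DOP) was a restricted compound feed that contained the dried, destoned residue of olive oil extraction. The wet crude olive cake diet (WCOC) combined a restricted compound feed without by-product and a silage of crude olive cake and barley straw offered freely. Each diet is represented by 5 pigs, numbered 1 to 5 (C1 to C5, DOP1 to DOP5 and WCOC1 to WCOC5), picked by the study on the amount and quality of their RNA. Each diet was fed in its own pen, so the diet, the pen, the feed allowance and the by-product cannot be told apart.

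The cycle oxidises the acetyl group of acetyl-CoA to carbon dioxide in the mitochondrial matrix and passes the electrons on to the respiratory chain. In fat cells it has a further role. Citrate made by citrate synthase leaves the mitochondrion and is cleaved in the cytosol to supply acetyl-CoA for fatty acid synthesis, and pyruvate carboxylase replaces the oxaloacetate that this export removes. White adipocytes keep pyruvate carboxylase high although they hold few mitochondria.

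The libraries held 22373715 to 34745218 counts on genes (median 28230154). Every library gave between 1181 and 93313 counts for each of the 9 genes, so counting error is small beside the spread between pigs for most of them. It is less so for IDH3A, whose SD in C was only 4.60% of its mean. Adipocyte markers (ADIPOQ, LEP and 4 others) summed to 10417 to 13571 CPM (counts scaled to a common library size) in C, 13023 to 16822 in DOP and 12375 to 18410 in WCOC. Of the 6, 4 had a positive log2 fold change in WCOC against C and 4 against DOP, and 1 was called in each. ADIPOQ, adiponectin, was higher in WCOC than in C (log2 fold change of 0.66, SE 0.17, adjusted p = 0.0281), and LEP, leptin, higher in WCOC than in DOP (1.08, SE 0.24, adjusted p = 0.0140), both by edgeR. Of the negative ones, CIDEC, a lipid droplet protein, was at −0.39 against C (adjusted p = 0.211) and −0.51 against DOP (adjusted p = 0.0921), and FABP4, a fatty acid carrier, at −0.03 (adjusted p = 0.918) and −0.19 (adjusted p = 0.392). Macrophage markers summed to 164 to 502 CPM in C, 90.2 to 229 in DOP and 78.5 to 184 in WCOC. Of the 6 listed, 4 were called lower in WCOC than in C (CD68, MSR1, AIF1 and CD163), 1 lower in DOP than in C (MSR1) and 1 lower in WCOC than in DOP (CD163). Fibroblast markers summed to 1073 to 1939 CPM in C, 867 to 1587 in DOP and 535 to 1309 in WCOC. Of these 4, LUM and DPT were called lower in WCOC than in C, and LUM and PDGFRA lower in WCOC than in DOP. Of all genes tested, 3.93% were called lower and 2.33% higher in WCOC than in C. Against DOP these shares were 5.11% and 2.65%, and between DOP and C 0.764% were called in either direction. None of the 3 endothelial and 3 T cell markers tested was called in any comparison. The part of these cells in the results that follow was not tested. In a bulk tissue, fewer cells of a type and less RNA per cell cannot be told apart.

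Skeletal muscle RNA set some libraries apart. ACTA1, MYL1, TNNT3 and CKM, the 4 of 9 listed muscle genes that the symbols matched, summed to 1926, 41.9, 3281, 211 and 75.0 CPM in C1 to C5. Their sum was 32.1, 9387, 199, 5381 and 42254 CPM in DOP1 to DOP5. In WCOC it was 193, 90.1, 16.6, 645 and 54.7 CPM. Muscle is rich in TCA cycle enzymes, and DOP5, with the highest sum, was also the highest of the 15 libraries for IDH3A, SUCLG1, FH and MDH2. It was the second for OGDH, the third for SDHA, the fifth for CS, the eighth for SDHB and the twelfth for PC. The part of muscle RNA in these levels was not tested, and the calls between WCOC and DOP, of the 9 genes and of the gene lists around them, are also given without this library. Muscle RNA stayed unequal without DOP5, since DOP2 and DOP4 remain. The 4 muscle markers then had a median log2 fold change of −4.08 in WCOC against DOP. A second split lies in the sequencing. All DOP libraries and C5 were run on flow cell B and C1 to C4 with all WCOC libraries on flow cell A, by the names of the runs. DOP and WCOC thus shared no flow cell and are linked only through C5.

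Per kilobase of exon, PC stood above the other genes. In the control pigs its level was 594 ± 130 CPM per kb (SD, n = 5), against 182 ± 33.6 for CS, the next. Behind these came MDH2 at 134 ± 13.8, SDHB at 121 ± 34.6, SDHA at 117 ± 22.2 and SUCLG1 at 112 ± 17.6 CPM per kb, each within an SD of its neighbour. OGDH followed at 83.9 ± 17.0, and IDH3A at 22.6 ± 1.04 and FH at 19.2 ± 1.78 CPM per kb were the lowest. The order in DOP had the same 3 genes at its head and the same 3 at its foot, with MDH2 at 157 ± 42.7 CPM per kb. In WCOC, MDH2 was at 78.4 ± 17.99 and stood sixth, behind SDHB at 106 ± 21.7, SDHA at 99.5 ± 9.01 and SUCLG1 at 80.9 ± 12.5, and within an SD of SUCLG1 and of OGDH at 66.7 ± 11.97. Exon lengths were taken over all transcripts of a gene in the RefSeq annotation, so a gene with a long untranslated end, as FH with 4976 exon bases, reads lower on this scale. A gene whose ends are incomplete in the annotation reads higher. This may hold for SDHB, with 843 exon bases in 1 transcript, and for PC, with 3528 in 1.

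The genes lie on 8 chromosomes of the Sscrofa11.1 assembly, SUCLG1 and MDH2 together on chromosome 3 but far apart. In RefSeq, MDH2 is at 10120121 to 10132705 on the minus strand of chromosome 3, SUCLG1 at 60142340 to 60177497 on its plus strand, FH at 12404143 to 12431843 on the minus strand of chromosome 10 and IDH3A at 47759436 to 47778948 on the minus strand of chromosome 7. Exons of CS, IDH3A and SDHA share bases with exons of COQ10A, ACSBG1 and CCDC127, respectively. The mapping was set for stranded reads, but the strand setting of the counting is not given in the sources used here, so reads from those shared bases may be misassigned for these 3 genes. MDH2 and PC overlap STYXL1 and LRFN4 without a shared exon base, and no other gene overlaps OGDH, SUCLG1, SDHB or FH.

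MDH2, FH, SUCLG1 and IDH3A were the genes called lower in WCOC than in DOP, as set out further on, and the 250 bases before their RefSeq starts (Sscrofa11.1, read in the direction of the gene) show what letters their upstream regions hold. Capitals mark matches, on either strand, to GGGCGG (bound by SP1), CCAAT (the CCAAT box) or CCGGAAGT (an ETS site of the GABPA kind). The stretches are chr3:10132706-10132955 (minus strand) for MDH2, chr10:12431844-12432093 (minus) for FH, chr3:60142090-60142339 (plus) for SUCLG1 and chr7:47778949-47779198 (minus) for IDH3A.
MDH2: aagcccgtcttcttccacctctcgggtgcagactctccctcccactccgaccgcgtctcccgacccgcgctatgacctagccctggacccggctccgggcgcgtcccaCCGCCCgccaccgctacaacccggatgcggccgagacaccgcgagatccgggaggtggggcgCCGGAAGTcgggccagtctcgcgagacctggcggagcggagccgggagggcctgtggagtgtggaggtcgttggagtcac
FH: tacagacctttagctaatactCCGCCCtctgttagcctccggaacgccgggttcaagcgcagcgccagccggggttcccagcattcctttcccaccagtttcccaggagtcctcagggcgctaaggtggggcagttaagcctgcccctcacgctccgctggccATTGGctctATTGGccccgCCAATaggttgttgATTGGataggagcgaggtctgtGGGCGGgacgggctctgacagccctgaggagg
SUCLG1: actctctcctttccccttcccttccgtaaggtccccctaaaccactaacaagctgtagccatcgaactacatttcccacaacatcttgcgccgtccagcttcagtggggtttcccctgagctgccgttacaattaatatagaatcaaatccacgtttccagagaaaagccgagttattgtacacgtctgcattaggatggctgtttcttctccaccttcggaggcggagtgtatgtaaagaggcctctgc
IDH3A: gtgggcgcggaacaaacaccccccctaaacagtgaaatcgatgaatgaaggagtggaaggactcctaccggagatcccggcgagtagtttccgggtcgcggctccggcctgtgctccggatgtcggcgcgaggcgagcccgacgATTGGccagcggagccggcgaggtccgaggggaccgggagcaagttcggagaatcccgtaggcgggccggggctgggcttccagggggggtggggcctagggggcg

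These 4 stretches had little in common. FH carried 4 CCAAT boxes within its last 87 bases and 2 GGGCGG matches, MDH2 1 GGGCGG and 1 CCGGAAGT match 80 bases before the start, IDH3A 1 CCAAT box, and SUCLG1 none of the motifs. Guanine and cytosine made up 71.2% of the bases in MDH2, 61.6% in FH, 49.2% in SUCLG1 and 68.4% in IDH3A, against a median of 57.6% over 19532 protein-coding genes. Over all 9 genes, GGGCGG was matched in 6, where 45.9% of the 19532 stretches held it, CCAAT in 4 (31.9% of all), and CCGGAAGT in 1 (2.87%). No match was found in any of the 9 to CAAGGTCA, the site of the oestrogen-related receptors (1.16% of all), to TGCGCATGC, that of NRF1 (1.16%), or to AAGATGGC, that of YY1 (1.49%). No match says only that these letters are not in this window. A RefSeq start that rests on 1 transcript, as for PC, SDHB, MDH2 and IDH3A, may not be the start of transcription.

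Differences between diets were tested with edgeR's quasi-likelihood test over all 14918 genes, and a gene was called where the Benjamini-Hochberg adjusted p was under 0.05 and the log2 fold change at least 0.58 in size, the limits of the study. Levels below are CPM on the scale set by TMM normalisation, and differences are log2 fold changes with their SE.

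Between WCOC and C, MDH2 was the single member called. It encodes mitochondrial malate dehydrogenase, which closes the cycle by oxidising malate to oxaloacetate and takes part in the malate-aspartate shuttle. In C1 to C5 it read 290, 302, 259, 305 and 240 CPM. In WCOC1 to WCOC5 it read 137, 197, 197, 112 and 170 CPM. All WCOC pigs were below all control pigs, with the highest WCOC value at 197 and the lowest control at 240. MDH2 fell by 0.78 on the log2 scale (SE 0.18, 95% interval −1.17 to −0.39, adjusted p = 0.0173), a change of −41.7%. Among all genes, 3.93% were called lower in WCOC than in C and 2.33% called higher. Within the flow cell that held C1 to C4 and all WCOC pigs, the log2 fold change was −0.84 (SE 0.16, adjusted p = 0.0224). It was −0.80 (adjusted p = 0.0495) over the 3 C and 5 WCOC libraries with muscle marker sums under 1000 CPM, a limit set after the values were seen. Without WCOC1 the adjusted p was 0.0538 and the call was lost.

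FH, fumarase, makes the malate that MDH2 uses. It read 104, 94.9, 92.4, 104 and 82.9 CPM in C1 to C5. In the WCOC pigs it read 74.0, 78.2, 76.3, 64.1 and 68.5 CPM. These diets did not overlap either. The difference of −0.41 (SE 0.11, adjusted p = 0.0306) passed the limit on p and not that on fold. At any fold, 5.41% of all genes passed the limit on p in the lower direction, against 2 of the 9 members. On the flow cell of the WCOC pigs it was −0.46 (SE 0.09, adjusted p = 0.0195). Over the low-muscle libraries it was −0.39 (adjusted p = 0.125).

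SUCLG1, the alpha subunit of succinyl-CoA ligase, read 215, 159, 188, 202 and 146 CPM in the control pigs. It read 122, 168, 127, 118 and 124 CPM in the WCOC pigs. Here WCOC2 lay above C2 and C5, and the other WCOC pigs were below every control pig. Its difference of −0.47 (SE 0.14, adjusted p = 0.0516) missed the limit. IDH3A, the catalytic alpha subunit of NAD-dependent isocitrate dehydrogenase, read 60.3, 57.8, 56.4, 63.5 and 60.7 CPM in the control pigs. It read 50.9, 44.2, 48.5, 54.2 and 50.5 CPM in the WCOC pigs. Although these diets did not overlap, the IDH3A difference was only −0.27 (SE 0.16, adjusted p = 0.319), and the SE was that of a fit which also holds DOP5. Over 12 other settings of the analysis its adjusted p ran from 0.0461 to 0.444, and IDH3A was called in 0 of them. MDH2, FH and IDH3A were thus the 3 of 9 members whose WCOC values all lay below C, where 3.87% of all genes did so.

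The remaining enzymes did not pass in this comparison. OGDH, the first subunit of the 2-oxoglutarate dehydrogenase complex, differed by −0.33 (SE 0.16, adjusted p = 0.192). SDHA and SDHB, the flavoprotein and the iron-sulfur subunit of succinate dehydrogenase, differed by −0.23 (SE 0.13, adjusted p = 0.276) and −0.19 (SE 0.20, adjusted p = 0.591). CS, which makes citrate from acetyl-CoA and oxaloacetate, differed by −0.24 (SE 0.16, 95% interval −0.58 to 0.10, adjusted p = 0.360). PC had the single positive value, 0.09 (SE 0.23, 95% interval −0.40 to 0.58, adjusted p = 0.848), and this sign turned without WCOC2, which held the highest PC level of the 15 libraries (−0.13), and without C5 (−0.020). PC read 2393, 1877, 2096, 2648 and 1459 CPM in C1 to C5. In WCOC1 to WCOC5 it read 2339, 3393, 1971, 1515 and 1895 CPM. Of the WCOC values 4 lay within the range of the control pigs, and WCOC2 above it. The median log2 fold change of the 9 genes was −0.27, with 8 of them negative, beside a median of 0.0043 over all genes tested.

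**Figure D1:**
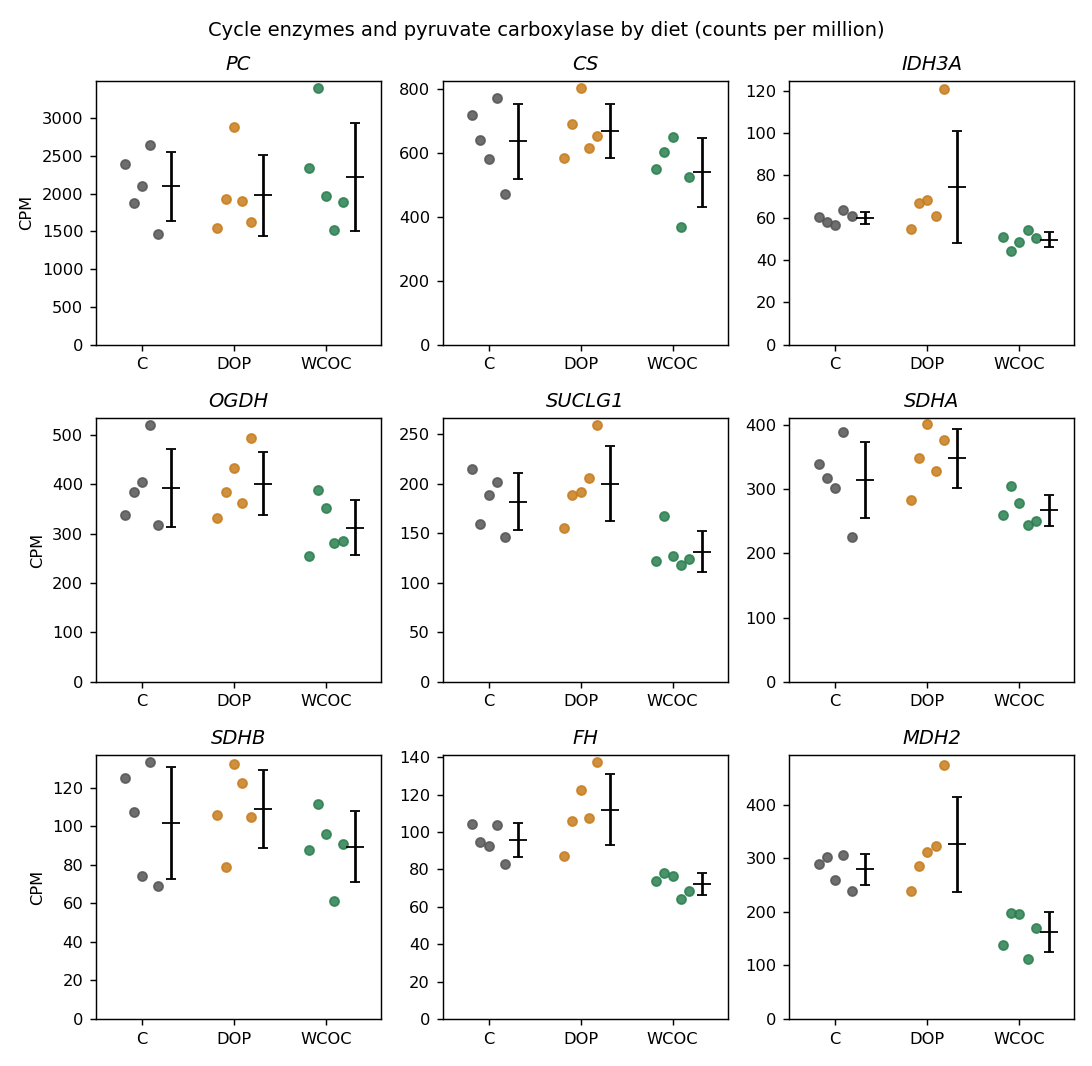
Level of each gene in CPM (vertical axes, from 0) in the 5 pigs of each diet, 1 point a pig in the order of their numbers, with the mean and SD as a bar beside the points. MDH2 and FH of the WCOC pigs lie below those of every C pig, and DOP5 is the highest point for IDH3A, SUCLG1, FH and MDH2.

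Between DOP and C, no member was called by edgeR, and none was by DESeq2 or limma-voom. The edgeR test called 0.764% of all genes in either direction, and 17.6% had an unadjusted p under 0.05, which none of the 9 members had. All 9 overlapped between these diets, where 3.47% of all genes did not. The log2 fold changes ran from −0.08 for PC (SE 0.23, adjusted p = 0.894) to 0.31 for IDH3A (SE 0.16, adjusted p = 0.338), with a median of 0.14 beside 0.011 over all genes. The nearest to the limit was FH at 0.23 (SE 0.11, 95% interval −0.0039 to 0.46, adjusted p = 0.293). MDH2 differed by 0.23 (SE 0.18, adjusted p = 0.564), SDHA by 0.15 (SE 0.13, adjusted p = 0.622), SUCLG1 by 0.14 (SE 0.14, adjusted p = 0.677), SDHB by 0.10 (SE 0.20, adjusted p = 0.847), CS by 0.07 (SE 0.16, adjusted p = 0.859) and OGDH by 0.03 (SE 0.16, adjusted p = 0.949). The intervals still allow differences of some size, as −0.16 to 0.61 for MDH2. IDH3A read 54.9, 66.8, 68.2, 61.0 and 121 CPM in DOP1 to DOP5, so its mean of 74.3 ± 26.5 (SD, n = 5) was carried by DOP5. Without DOP5 the IDH3A difference was 0.07.

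Between WCOC and DOP, 4 members were called, and each was lower in WCOC. Among all genes, 5.11% were called lower in WCOC and 2.65% called higher. MDH2 read 238, 286, 311, 323 and 474 CPM in DOP1 to DOP5. Its lowest DOP value, 238, was above the highest WCOC value, 197. MDH2 fell by 1.00 on the log2 scale (SE 0.18, 95% interval −1.40 to −0.61, adjusted p = 0.00494), to 0.498 times the DOP level. FH read 87.1, 106, 122, 107 and 137 CPM in the DOP pigs, all above the WCOC pigs. FH fell by 0.63 (SE 0.11, 95% interval −0.87 to −0.40, adjusted p = 0.00377).

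SUCLG1 read 155, 189, 192, 206 and 259 CPM in DOP1 to DOP5, and DOP1 lay below WCOC2. SUCLG1 fell by 0.61 (SE 0.14, adjusted p = 0.0172). IDH3A did not overlap, by a margin of less than 1 CPM between DOP1 and WCOC4. IDH3A fell by 0.58 (SE 0.16, adjusted p = 0.0343), just past the limit on fold, and was called in only 2 of 11 other settings of the analysis, with −0.58 (adjusted p = 0.00819) by DESeq2 just under the limit and −0.52 (adjusted p = 0.0491) by limma-voom. The 3 of 9 members without overlap, MDH2, FH and IDH3A, compare with 4.77% of all genes lower in WCOC without overlap. At any fold, the same 4 members passed the limit on p, where 7.2% of all genes did in the lower direction. The others were SDHA at −0.38 (SE 0.13, adjusted p = 0.0737), OGDH at −0.36 (SE 0.16, adjusted p = 0.146), CS at −0.31 (SE 0.16, adjusted p = 0.220) and SDHB at −0.28 (SE 0.20, adjusted p = 0.390). PC differed by 0.17 (SE 0.23, 95% interval −0.32 to 0.66, adjusted p = 0.684). The median over the 9 was −0.38, beside 0.00067 over all genes.

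Only MDH2 of these 4 was called without DOP5, at −0.84 (SE 0.16, adjusted p = 0.00880). In that fit, 423 of 15056 genes tested were called lower in WCOC and 276 higher. The same background holds for the counts without DOP5 given below for the gene lists. FH was then at −0.55 and SUCLG1 at −0.50, with adjusted p of 0.00831 and 0.0390, and IDH3A at −0.34 with 0.0213, all short of the limit on fold. Over the 2 DOP and 5 WCOC libraries with muscle marker sums under 1000 CPM, no member was called, with MDH2 at −0.76 (adjusted p = 0.182) and FH at −0.54 (adjusted p = 0.153). With the muscle markers as a further term over all libraries, MDH2 was again the only member called. With the flow cell as a further term, which rests on C5 alone, no member was called and MDH2 was at −1.27 (SE 0.39, adjusted p = 0.275).

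**Figure D2:**
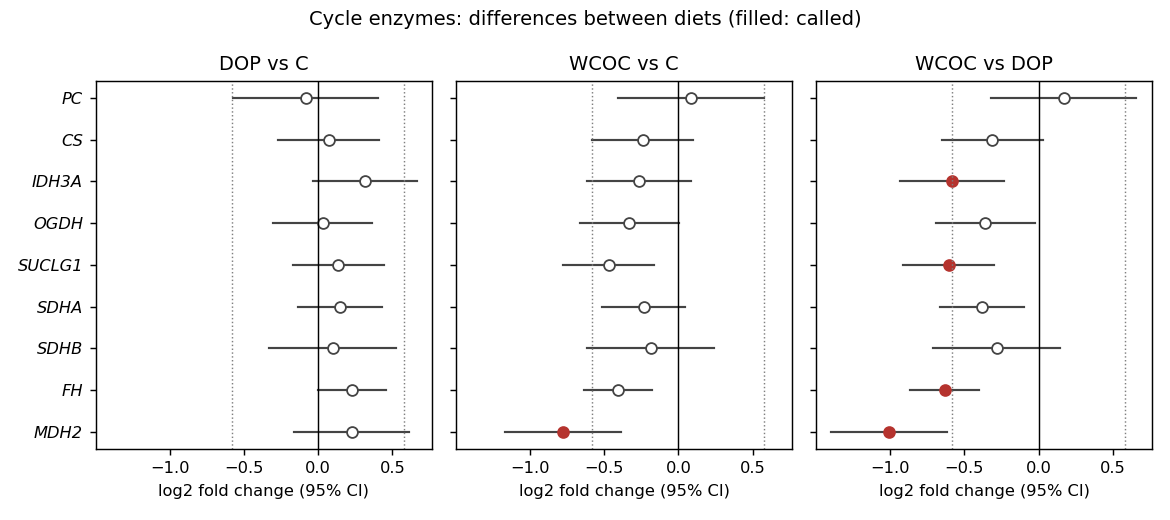
Log2 fold change (horizontal axis) of each gene in the 3 comparisons, with the 95% interval as a line. Filled points were called, dotted lines mark the limit of 0.58, and the negative side is lower in the first diet named. MDH2 alone is filled for WCOC vs C and 4 genes are for WCOC vs DOP.

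**Figure D3:**
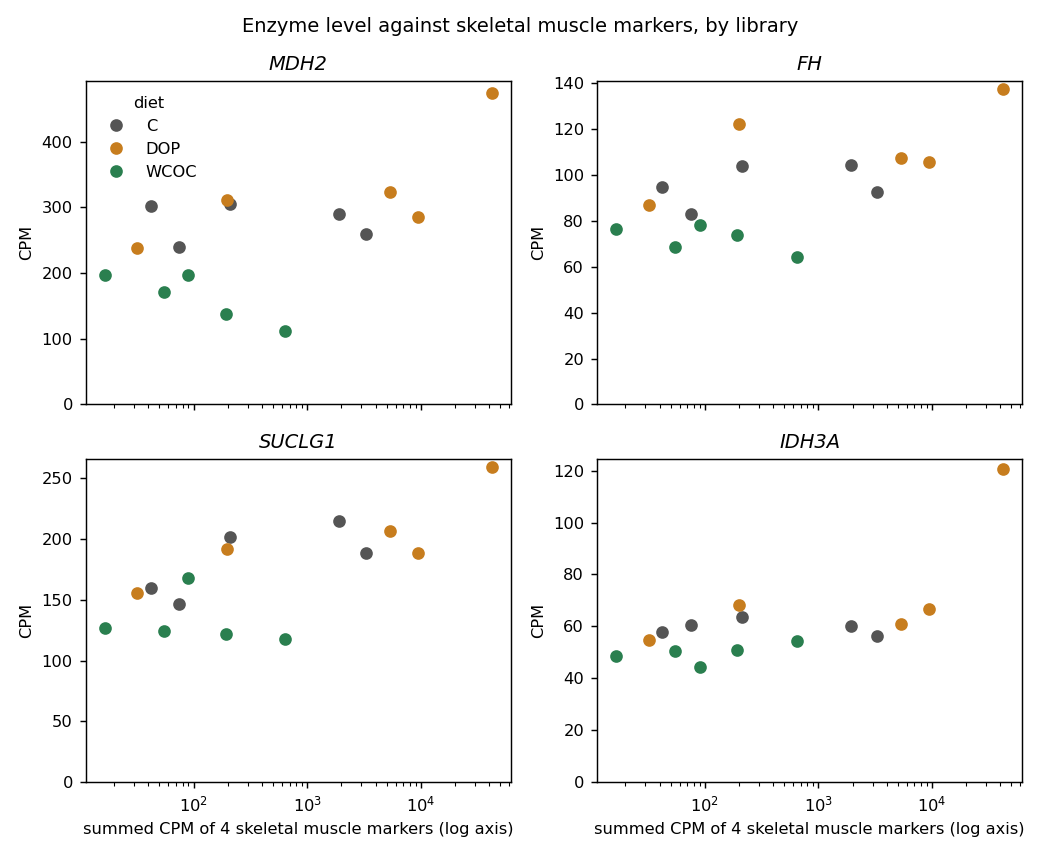
CPM of the 4 genes called between WCOC and DOP (vertical axes) against the summed CPM of 4 skeletal muscle markers (horizontal, log axis), 1 point a library, coloured by diet. DOP5 is the point at the far right, at 42254 CPM, and MDH2 of all WCOC libraries lies below every C and DOP point.

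Levels were also looked at as a ratio inside each library, with CS as the reference, a set of 24 tests chosen after the values above were seen. The log2 ratio of MDH2 to CS was −1.73 ± 0.16 (SD, n = 5) in WCOC, −1.17 ± 0.15 in C and −1.06 ± 0.38 in DOP. All WCOC ratios, at most −1.62, lay below all C ratios, of which the lowest was −1.34, and below all DOP ratios, of which the lowest was −1.37. The difference was −0.56 against C and −0.67 against DOP, each with an exact two-sided permutation p of 0.00794, the smallest that 5 against 5 can give, and 0.0952 after Benjamini-Hochberg adjustment over the 24. The ratio of PC to CS was 2.02 ± 0.33 in WCOC and 1.54 ± 0.21 in DOP (exact permutation p = 0.0317, adjusted 0.254, n = 5 each). No ratio of the 24 passed the adjustment. With only these 2 MDH2 differences at the smallest possible p, even full separation gave 0.0952 and could not pass. Their failure to pass therefore says nothing about whether the ratios differ. The ratios of SDHA, SDHB and OGDH to CS differed by less than 0.09 between any 2 diets.

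Co-variation from pig to pig was examined after the mean of each diet was removed. The 36 pairs had a median Pearson r of 0.61 over the 15 libraries, and 19 had an adjusted p under 0.05. Pairs of other genes were not examined in this way, so how common such values are among all genes is not known here. Among the 21 pairs without PC and IDH3A, r ran from 0.44 to 0.83, and 16 passed the same limit by permutation within diets (100000 draws, two-sided). SUCLG1 and FH were the closest pair, with r = 0.83 and Spearman rho = 0.77 (adjusted permutation p = 0.00732 and 0.0136), and r = 0.77 without the 2 libraries farthest from the median of SUCLG1. SDHA and FH followed, with r = 0.83 and rho = 0.91 (adjusted permutation p = 0.0018 and 0.00216), and r = 0.89 without 2 libraries.

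PC, which serves the refilling of the cycle, followed CS with r = 0.78 and rho = 0.76 (adjusted permutation p = 0.0107 and 0.0136), and r = 0.66 without 2 libraries. It followed SDHA with r = 0.77 and rho = 0.78 (adjusted permutation p = 0.00396 and 0.0136), and r = 0.72 without 2. IDH3A passed with none of the other 8, with r from −0.20 with PC to 0.61 with FH. The latter value rested on the libraries at its ends, since r was −0.18 without the 2 farthest. The libraries differ in depth and in muscle RNA, and the part of these in the pairs was not tested.

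**Figure D4:**
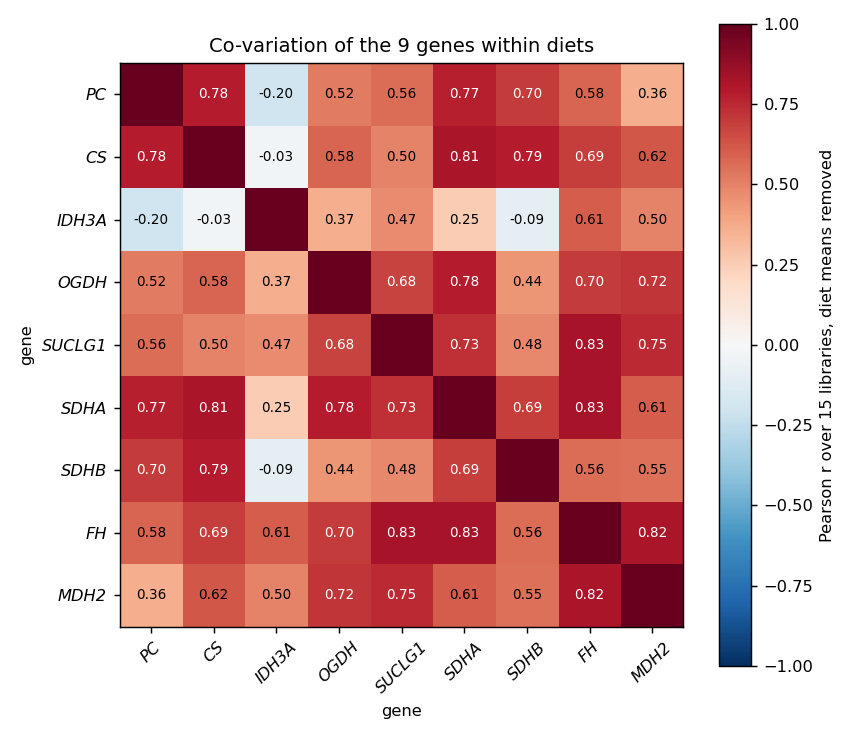
Pearson r of each pair of genes (colour and number in each square, from −1 to 1) over 15 libraries after removal of the diet means. The row of IDH3A is pale, with values from −0.20 to 0.61, and the highest value is 0.83.

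The mean standardised profile of the 9 genes was highest in DOP5, at 1.24, DOP3, at 1.09, and C4, at 1.01, and lowest in WCOC4, at −1.53. With the diet means left in, SDHA was the member most like it (r = 0.95 over 15 libraries), and PC (0.43) and IDH3A (0.63) were the least. With the diet means removed, r was 0.93 for SDHA, 0.77 for PC and 0.34 for IDH3A, then the lowest. The profile holds each member itself. Among 11123 other genes compared, those most like this profile, with the diet means left in, were IMMT (r = 0.97), DNAJC19 (0.96), PSMC2 (0.95), COX5B (0.95) and IDH3B (0.95). IMMT is a scaffold of the inner mitochondrial membrane, DNAJC19 a part of its protein import, PSMC2 a proteasome subunit, COX5B a subunit of cytochrome c oxidase and IDH3B a partner subunit of IDH3A.

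Among other subunits and isoforms of the cycle, 13 genes were listed from knowledge of the pathway, and all were tested. In WCOC against C, 12 of 13 had a negative log2 fold change, with a median of −0.30. None of the 13 was called by edgeR, and 7 had an unadjusted p under 0.05, as 26.4% of all genes had. SDHD, a membrane anchor of succinate dehydrogenase, was at −0.33 (SE 0.08, adjusted p = 0.0254), under the limit on fold. In WCOC against DOP, 10 of 13 had an adjusted p under 0.05, where 7.2% of all genes did so in the lower direction. Called lower were 4 of 13, where 5.11% of all genes were. The cytosolic isoforms IDH1 and MDH1, at −0.73 (SE 0.15, adjusted p = 0.00812) and −0.65 (SE 0.19, adjusted p = 0.0360), were among them. So was ACO1, a cytosolic enzyme, at −0.77 (SE 0.23, adjusted p = 0.0419). IDH2, the mitochondrial NADP-dependent enzyme, was at −1.21 (SE 0.34, adjusted p = 0.0321), and its DOP values ran from 43.7 to 210 CPM. Without DOP5, 2 of the 13 were called, IDH1 at −0.77 (adjusted p = 0.0113) and IDH2 at −0.65 (adjusted p = 0.0417), and the median of the list was −0.46. Over the libraries with muscle marker sums under 1000 CPM, IDH1 was at −0.77 (adjusted p = 0.171) and IDH2 at −0.23 (adjusted p = 0.450), neither called. In DOP against C all 13 were positive, with a median of 0.19, and none was called by edgeR, while 3 (SUCLA2, DLD and IDH2) had an unadjusted p under 0.05.

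**Figure D5:**
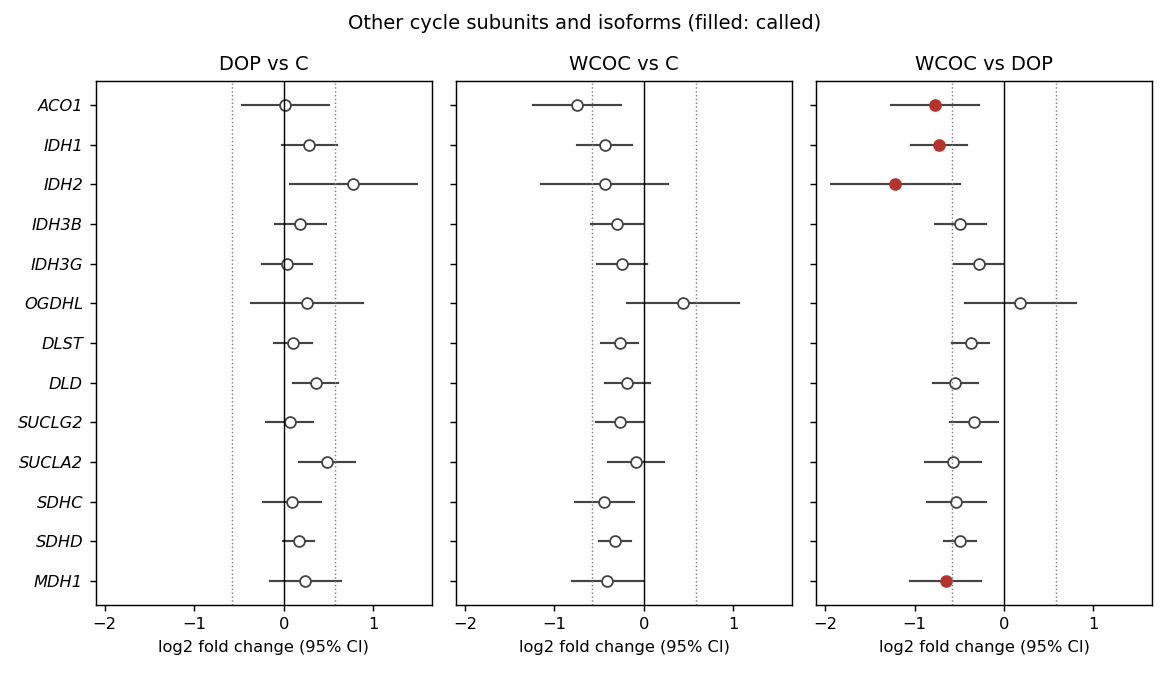
Log2 fold change (horizontal axis) of 13 other subunits and isoforms of the cycle in the 3 comparisons, with 95% intervals as lines, filled points called and dotted lines at 0.58. No gene is filled for WCOC vs C, and ACO1, IDH1, IDH2 and MDH1 are for WCOC vs DOP.

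Upstream of the cycle, the pyruvate dehydrogenase complex makes its acetyl-CoA. Of its 10 genes, PDHB was called lower in WCOC than in C (−1.35, SE 0.26, adjusted p = 0.00678), with 104 to 245 CPM in WCOC and 353 to 604 in C. Against DOP, PDHB was at −1.62 (SE 0.26, adjusted p = 0.00280), and PDHA1, the partner subunit, at −0.58 (SE 0.13, adjusted p = 0.0142). Both were also called without DOP5. Of all genes, 3.93% were called lower in WCOC than in C and 5.11% lower than in DOP. None of the 10 was called between DOP and C, with 1 at an unadjusted p under 0.05, where PDHA1, the most abundant, was at 0.19 (SE 0.13, adjusted p = 0.504). The 1 was PDK4, a kinase that inhibits the complex, named after its values were seen. It was at 1.97 (SE 0.46, adjusted p = 0.0582), with a mean of 88.5 ± 33.0 CPM in DOP and 22.6 ± 7.41 in C (SD, n = 5 each) and no overlap of these diets.

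Around the cycle, the carriers and the enzymes that withdraw its intermediates also held called genes. SLC25A1, which exports citrate, fell by 0.93 in WCOC against C (SE 0.27, adjusted p = 0.0402) and by 1.25 against DOP (SE 0.27, adjusted p = 0.0116). SLC25A11, the oxoglutarate carrier, fell by 0.94 against C (SE 0.22, adjusted p = 0.0178) from a level of only 2.27 CPM. ACLY, which cleaves exported citrate, fell by 1.19 against C (SE 0.32, adjusted p = 0.0302), and ME1, malic enzyme, by 1.55 (SE 0.30, adjusted p = 0.00739). GOT2, the mitochondrial aspartate aminotransferase that works beside MDH2 in the shuttle, fell by 0.61 against C (SE 0.16, adjusted p = 0.0306) and by 0.89 against DOP (SE 0.16, adjusted p = 0.00498). Against DOP, ME1 fell by 1.23 (SE 0.30, adjusted p = 0.0189), ACLY by 1.08 (SE 0.32, adjusted p = 0.0380) and GOT1, the cytosolic isoform of GOT2, by 0.74 (SE 0.23, adjusted p = 0.0469). PCK1, which turns oxaloacetate into phosphoenolpyruvate for glycerol synthesis, went the other way against C, rising by 2.08 (SE 0.39, adjusted p = 0.00568). In counts, 2 of 5 carriers were called lower in WCOC than in C and 1 of 5 lower than in DOP, and of 12 anaplerotic and cataplerotic genes 3 were called lower and 1 higher against C and 4 lower against DOP. Of all genes, 3.93% were called lower and 2.33% higher against C, and 5.11% lower against DOP. Without DOP5 the counts against DOP were 1 of 5 (SLC25A1) and 2 of 12 (ME1 and GOT2), with ACLY at −1.15 (adjusted p = 0.0545) and GOT1 at −0.42 (adjusted p = 0.0904). Between DOP and C none of these was called, with 1 carrier and 1 of the 12 at an unadjusted p under 0.05, and with MPC2 at 0.09 (SE 0.18, adjusted p = 0.845) and ACLY at −0.11 (SE 0.31, adjusted p = 0.902) the most abundant.

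Respiratory chain subunits, downstream, had 13 of 13 tested genes negative in WCOC against C, with a median of −0.44, and 2 were called. These were ATP5F1A of ATP synthase at −0.61 (SE 0.16, adjusted p = 0.0285) and UQCRC1 of complex III at −0.63 (SE 0.17, adjusted p = 0.0311). Of all genes, 3.93% were called lower in WCOC than in C. COX4I1, 1 of the 13, had a mean of only 2.97 CPM in C, 2.63 in DOP and 2.73 in WCOC. Against DOP 9 of 13 were called lower, with a median of −0.65, where 5.11% of all genes were. Without DOP5 it was 6 of 13, with a median of −0.53, where 423 of 15056 genes were called lower. The sum of these 13 was highest in DOP5, at 2814 CPM, beside 1737 to 2243 in the other DOP libraries and 1108 to 1621 in WCOC, and the muscle markers had a median log2 fold change of −5.86. The part of muscle RNA was not tested. The smallest p were those of UQCRFS1 at −0.78 (SE 0.13, adjusted p = 0.00302), COX5A at −0.74 (SE 0.13, adjusted p = 0.00375), NDUFS1 at −0.84 (SE 0.15, adjusted p = 0.00412) and ATP5F1A at −0.88 (SE 0.16, adjusted p = 0.00503), and these 4 were also called without DOP5. Of 9 genes of mitochondrial mass and biogenesis, none was called against C, with 4 at an unadjusted p under 0.05, where VDAC1, the outer membrane channel, was at −0.44 (SE 0.12, adjusted p = 0.0369). Against DOP, VDAC1 was called at −0.60 (SE 0.12, adjusted p = 0.00961) and PPARGC1A at −2.29 (SE 0.70, adjusted p = 0.0438), the latter from 3.12 CPM. Without DOP5, VDAC1 was at −0.58 (adjusted p = 0.0200), still called, and PPARGC1A at −1.18 (adjusted p = 0.179). Over the low-muscle libraries VDAC1 was at −0.49 (adjusted p = 0.245), and the sign of PPARGC1A turned, to 0.44 (adjusted p = 0.800). Over the libraries with muscle marker sums under 1000 CPM, none of the genes in these lists around the cycle was called between WCOC and DOP, with the median of the respiratory chain list at −0.51 and that of the other cycle genes at −0.43. None of the 5 assembly factors of succinate dehydrogenase and iron-sulfur clusters tested was called in any comparison. For DOP against C, WCOC against C and WCOC against DOP, 1, 1 and 2 had an unadjusted p under 0.05, as 28.1% of all genes had in the latter. At any fold, 0, 1 and 2 of the 5 had an adjusted p under 0.05. In the lower direction, 5.41% of all genes did so against C and 7.2% against DOP. NFS1, named after its values were seen, was at −0.40 in WCOC against C (SE 0.09, adjusted p = 0.0124), short of the limit on fold. ISCU, the scaffold, was at −0.06 (SE 0.11, adjusted p = 0.776) in WCOC against C and −0.17 (SE 0.11, adjusted p = 0.334) against DOP. Between DOP and C, none of these 3 lists held a called gene by edgeR, and the first and the second had 3 and 1 genes at an unadjusted p under 0.05.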

How the data were processed

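Gene counts were deposited by the authors, 1 file per library, as raw read counts per Ensembl pig gene. Per the labels and the study's methods, total RNA was sequenced in pairs, checked with FastQC, mapped with HISAT2 to Sscrofa11.1 with its setting for stranded reads and counted with HTSeq; versions, annotation release and the strand setting of the counting are not given in the sources used here. Rows that name no gene were left out (23.4% to 32.8% of read pairs per library). Symbols came from a table of gene names.

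The counts were filtered with filterByExpr, scaled by TMM and fitted with 1 mean per diet over all 15 libraries in edgeR 4.0.16 (R 4.3.3), quasi-likelihood, with two-sided tests and p-values adjusted after Benjamini and Hochberg across 14918 genes. Genes were called at an adjusted p under 0.05 and a log2 fold change of at least 0.58 in size. The step was tested on simulated data. The labels do not say what the replicate numbers stand for, so the main fit used no pairing. The p-values measure the spread between pigs of 1 pen per diet. The members and lists were chosen with earlier results of these data known. Named were all members, called genes of the cycle list, the 4 called genes with the smallest p of each other list and comparison (where none, the most abundant gene) and the 5 genes most like the members' profile. Marker lists were named more briefly, and 1 gene is not reported here. Alternatives included DESeq2 1.42.0 and limma 3.58.1 with voom. Upstream bases were read from the RefSeq Sscrofa11.1 genome, and Python 3.11.15 with scipy 1.17.1 gave the exact and permutation tests.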

Additional observations from a re-analysis of the deposited data

Results flagged for a closer look

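In 2 of the 27 sets of 5 pigs (9 genes in 3 diets), the end library stood apart by Dixon's 95% criterion, and chance marks about 1 in 20 such sets. IDH3A in DOP5 was at 121 CPM, where the next DOP library had 68.2 CPM, and this library also had the highest sum of skeletal muscle markers. SUCLG1 in WCOC2 was at 168 CPM, where the next WCOC library had 127 CPM.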

How the results depend on the processing

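Of the 9 members, 1, 4 and 0 were called in WCOC against C, WCOC against DOP and DOP against C. Leaving out 1 library gave 0 to 1, 1 to 4 and 0 to 0, and for all genes 468 to 1163 (from 933), 639 to 1291 (from 1158) and 0 to 200 (from 114). The call of MDH2 against C was lost without WCOC1. Against DOP it held in 10 of 10, FH was lost without DOP5, SUCLG1 without DOP5, WCOC1 and WCOC4, and IDH3A without DOP5 or any 1 WCOC library. In 11 other settings the calls of MDH2, FH, SUCLG1 and IDH3A against DOP held in 9, 8, 7 and 2. For all genes the count moved by over 1.5 times without C3, WCOC1 or WCOC4 against C, and without DOP2, DOP5, WCOC1 or WCOC4 against DOP. The replicate block called 2 members between WCOC and DOP, and 561, 473 and 0 genes for WCOC against DOP, WCOC against C and DOP against C. The labels do not say what the numbers stand for. Deviations of same-numbered pigs correlated by −0.50 to 0.34, which cannot show whether they shared a day or batch. With the flow cell as a term, 0 members and 1 gene were called between WCOC and DOP. With muscle markers as a term these were 1 and 444, and between DOP and C 41 genes. Over libraries under 1000 CPM of muscle markers, added after seeing the data, 0 members and 92 genes were called for WCOC against DOP, 354 genes for WCOC against C and 0 for DOP against C. With no limit on fold, 2 members and 1493 genes were called in WCOC against C, and 1842 genes against DOP. Flow cell A alone (4 C and 5 WCOC libraries) gave 486 genes for WCOC against C. Between DOP and C, DESeq2 called 496 genes, limma-voom 19 and a fit of only these diets 2.

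Among the members, signs turned only for differences that were not called. In DOP against C, PC was at 0.44 with the flow cell and 0.14 over low-muscle libraries, OGDH at −0.0029 with muscle markers and −0.10 over low-muscle libraries, and MDH2 at −0.045 over the latter. Leaving out 1 library there gave −0.019 to 0.15 for CS, −0.060 to 0.15 for OGDH, −0.016 to 0.21 for SDHB and −0.27 to 0.014 for PC. PC in WCOC against C was at −0.020 with the flow cell and −0.030 on flow cell A, with a range of −0.13 to 0.20 without 1 library. Against DOP it was at −0.46 with the flow cell, with a range of −0.039 to 0.34. The causes were not tested. Limits of these results include 5 pigs per diet, 1 pen per diet, the split in flow cells and the unequal muscle RNA.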
